A study of Sus scrofa with 9 samples.

Results

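Circular RNAs (circRNAs) that were counted in both distinct libraries of mature boar sperm, and in no library of eggs or 1-cell embryos, numbered 57 of the 3071 circRNAs in the series. They came from 55 of 1727 host genes. The members were chosen by their counts: above 0 in sperm libraries 1 and 2, and 0 in all 3 libraries of metaphase II (MII) oocytes and all 3 libraries of pronuclear (PN) embryos. The column of sperm library 3 repeats that of library 1 for all 3071 circRNAs, so that the sperm circRNA data hold 2 distinct libraries. Because the rule uses these counts, the levels of the members in sperm against oocytes and embryos are given as a description, without a test.

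The study compared porcine MII oocytes, PN embryos produced by in vitro fertilization and purified mature sperm. Its aim was to find RNAs that sperm carry into the egg. The oocytes came from postpubertal Long White gilts, were matured in vitro with hormones and growth factors, and were freed of cumulus cells. Each group was sequenced as 3 libraries after depletion of ribosomal RNA, 9 in all. According to the methods, oocyte and embryo RNA came from large pools of cells, sperm RNA came from adult Large White boars, and fertilization used semen of Landrace boars that was spun through a density gradient. Neither the number of boars nor whether the libraries of a group came from separate pools is stated, so the spread between libraries may be technical.

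A circRNA is made when the splicing machinery joins the end of an exon backwards, to its own beginning or that of an exon upstream, so that the RNA forms a ring without free ends. Such rings resist exonucleases and outlast the linear transcript of their host gene. Sperm hold RNA left from the spermatogenic cells that made them, since transcription stops as the chromatin is packed with protamines. The prefix ciRNA, which usually stands for circles made of introns, was carried by 46 entries of the table and by 0 of the members.

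The sperm libraries had larger circRNA totals than the others, whereas the paper lists similar numbers of valid reads for the libraries of all groups. The summed circRNA count was 155731 and 167851 in the sperm libraries, between 22809 and 24217 in the MII oocyte libraries and between 23056 and 26200 in the PN embryo libraries. A count of 0 in an oocyte or embryo library therefore allows up to 3 counts, or 114.5 to 131.5 CPM (counts scaled to a circRNA total of 1000000 per library), with allowance for counting error only. The mean level of 54 members in sperm lay above the highest of these floors and that of 3 members (GRK4, GATAD2A and MLLT10) did not. These 3 members had mean counts of 20, 15 and 5 in sperm. The floors in CPM rest on the circRNA totals alone, and no other scaling of them was tried. In both sperm libraries 42 members were above this floor, in 1 of them 13 were, and 21 exceeded 5 times this floor in both. What gave the zeros of the members in oocytes and embryos was not tested.

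Labels were checked against host genes with known cell types. Of 12 sperm marker genes, 4 had a circRNA, and their summed level was 6575 and 7173 CPM in the sperm libraries. In the oocyte and embryo libraries it ranged from 0 in MII oocyte library 2 to 5916 CPM in PN embryo library 2. There, all 155 counts came from LDHC, so that this list separates sperm from that library only narrowly. By gene, LDHC had 648 and 270 counts in sperm libraries 1 and 2, and ZPBP had 376 and 273. TEKT3 (0 and 613) and ODF2 (0 and 48) were absent from sperm library 1, so the similar sums hide uneven genes. Of 8 oocyte marker genes, 3 had a circRNA, at 0 in both sperm libraries. Of 7 markers of leukocytes and somatic cells, 1 had a circRNA, with 19 counts in sperm library 1 and 0 in all the others. Most defining markers, protamines included, had no circRNA, and their absence from this table says nothing about their mRNA.

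Few sperm-only circRNAs were found in both libraries. In all, 761 circRNAs were counted in sperm alone, 412 of them in library 1 and 406 in library 2. Library 1 alone held 355, library 2 alone held 349, and the 57 members make up 7.49% of the total (exact 95% interval 5.72 to 9.60). They are 13.8% of the sperm-only circRNAs of library 1 and 14.0% of those of library 2. In contrast, of the circRNAs that were also counted in an oocyte or embryo library, 46.0% of 150 in sperm library 1 and 42.6% of 162 in sperm library 2 were found again in the other sperm library. The rule sorts circRNAs by their oocyte and embryo counts, and its part in this difference was not tested.

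The share found again hardly moved with abundance. Among sperm-only circRNAs with at least 50 counts, 37 of 260 in library 1 (14.2%) and 40 of 279 in library 2 (14.3%) were also counted in the other library. With at least 300 counts, the shares were 15 of 103 (14.6%, exact 95% interval 8.39 to 22.9) and 19 of 128 (14.8%, 9.18 to 22.2). Thus, many abundant circles of 1 sperm library were missing from the other, where a count of 0 allows up to 19.3 CPM in library 1 and up to 17.9 in library 2. The 704 sperm-only circRNAs of a single library had a median count of 106.5 and reached 1684. The members were similar in level: their median count was 121 in library 1 (range 1 to 773) and 131 in library 2 (range 1 to 935).

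**Figure D1:**
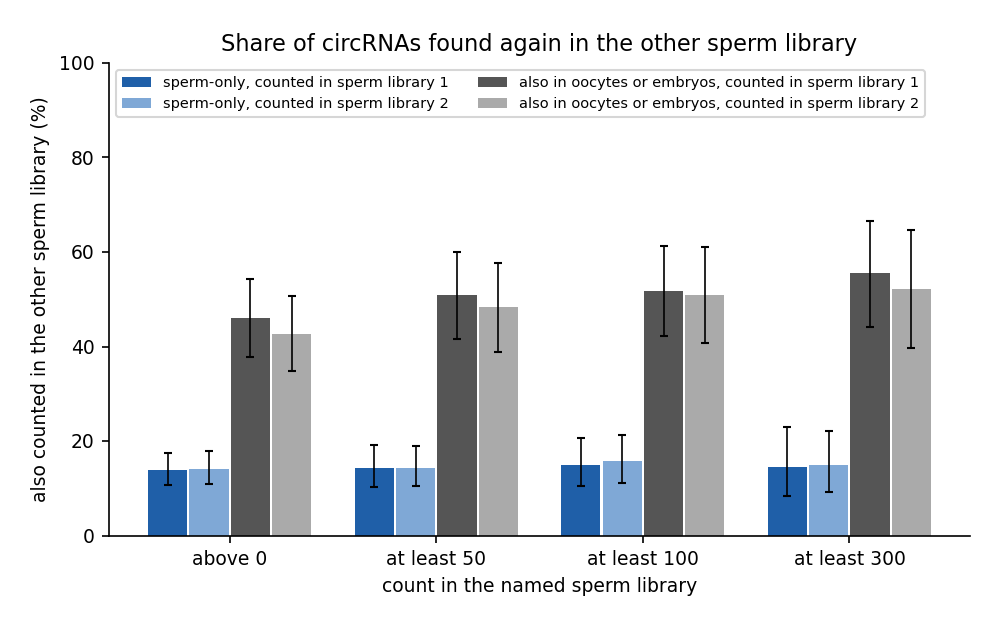
Share of circRNAs of 1 sperm library that were also counted in the other (y axis, percent), by the count in the first library (x axis), with exact 95% binomial intervals that cover counting error only. Blue bars are sperm-only circRNAs, at 13.8% to 15.7% in all classes, and grey bars are circRNAs also counted in oocytes or embryos, at 42.6% to 55.6%.

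The members held 11649 of the circRNA counts of library 1 (7.48%) and 12913 of those of library 2 (7.69%). All sperm-only circRNAs together held 51.8% and 54.1%, and the 69 other circRNAs counted in both sperm libraries held 30.6% and 30.9%. The 10 highest members of each library took 50.5% and 49.4% of the members' counts. No member was among the 20 most abundant circles: the highest rank was 32 in library 1, by ZMYM2, and 23 in library 2, by RNF32. Among the 100 most abundant circRNAs were 6 members in library 1 and 7 in library 2.

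The edge of the rule lies at a few reads. Just inside it, 6 members had a count of 1 in their lower library, 1 had a count of 2 and 2 had a count of 3. Just outside it lay 33 circRNAs counted in both sperm libraries that had at most 1 count (28 of them) or 2 counts (5) in any oocyte or embryo library. The most abundant of these 33 was TESK2 (1166 and 3843 counts in sperm libraries 1 and 2, with 1 count in PN embryo library 3), followed by RRP1 (2059 and 2161) and PPA2 (1998 and 2118), all above every member. TESK2 encodes a testis-enriched kinase and PPA2 a mitochondrial pyrophosphatase.

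Metabolic enzymes were the largest group of host genes among the lists used, with 9 members, or 15.8% of members against 3.32% of the 3071 circRNAs and 5.26% of the single-library sperm-only circRNAs. The lists were drawn up with these data known, so that all such shares are descriptions. Members and all circRNAs were shared out alike for trafficking (8.77% and 8.53%), the ubiquitin system (5.26% and 4.98%), channels and membrane proteins (3.51% and 3.26%), chromatin (3.51% and 4.33%) and the centrosome and cell cycle (1.75% and 2.38%). Members had a higher share than all circRNAs for germ cell genes (8.77% and 1.95%), kinases (8.77% and 4.88%), RNA processing (7.02% and 4.17%), transcription factors (7.02% and 2.61%) and the cilium (5.26% and 2.61%), each on 3 to 5 members. Of single-library sperm-only circRNAs, RNA processing had 7.24% and the ubiquitin system 7.39%. The circRNA of LPL, lipoprotein lipase, which frees fatty acids from circulating triglycerides, had the highest mean level of all members, with 569 counts in sperm library 1 and 555 in library 2. These counts correspond to 3654 and 3306 CPM, their counting intervals overlap, and their mean is at least 26.5-fold higher than the highest oocyte or embryo floor per library. LPL (ENSSSCG00000040631) lies on chromosome 14 from 4104761 to 4134964 in the RefSeq annotation of Sscrofa11.1, and the position of the circle within the gene is not given here.

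WSCD2, placed on this list for its sulfotransferase domain, followed with 676 and 392 counts, a 1.86-fold difference on the CPM scale. ACSF3, the malonyl-CoA synthetase of mitochondria, had 363 and 347 counts, and was among the most even of the abundant members. TXNRD1, cytosolic thioredoxin reductase, which keeps thioredoxin reduced, gave 2 members with opposite bias. Its circRNA2343 had 20 counts in library 1 and 758 in library 2, whereas its circRNA2344 had 436 and 33. Hence, both libraries held TXNRD1 circles, but mostly of a different kind. The other members of this list were lower: ABHD2, the progesterone-sensitive lipid hydrolase of the sperm tail (263 and 60), ACSL5, a long-chain acyl-CoA synthetase (58 and 131), CHSY1, which builds chondroitin sulfate chains (48 and 53), and MTHFSD (65 and 23).

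Germ cell genes accounted for 5 members. CNBD2, a cyclic nucleotide binding protein of spermiogenesis, had 446 counts in library 1 and 482 in library 2, the most even ratio of all members (a log2 ratio of 0.0039). NUP210L, a testis-specific nucleoporin, gave 2 members, of which circRNA2362 had 295 and 429 counts and circRNA2363 had 88 and 2. RNF32, a RING finger protein of the testis, showed the opposite of CNBD2, with 20 counts in library 1 and 935 in library 2, a 43.4-fold difference. It was the highest member of library 2 and near the oocyte and embryo floor in library 1.

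Genes of the flagellum and cilium hosted 3 members. C2CD3, a centriole protein needed to build distal appendages, had 3 counts in library 1 and 393 in library 2. DNAH10, an inner arm dynein heavy chain of motile axonemes, had 3 and 220. Only TTLL5, a tubulin polyglutamylase of sperm and cilia, was even, at 50 and 38 counts with overlapping counting intervals. Thus, 2 of the 3 rested almost entirely on sperm library 2, a count that describes these members alone. Differences over 10-fold were found for 15 of all 57 members and for 12 of the 69 other circRNAs counted in both sperm libraries.

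Kinases of proteins and lipids hosted 5 members on the list. DYRK1A, a dual-specificity kinase, had exactly 496 counts in both libraries, or 3185 and 2955 CPM. The others were unequal. ABL1, a tyrosine kinase, had 465 and 32 counts, CDK8, the kinase of the Mediator complex, had 34 and 244, and PIKFYVE, which makes PtdIns(3,5)P2 on endosomes, had 412 and 1. PI4K2A, a phosphatidylinositol 4-kinase of the Golgi and endosomes, had 121 and 1. GRK4, a G protein-coupled receptor kinase of the testis that is not on the list, had 11 and 29.

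Membrane trafficking genes gave 5 members, and 4 of these were within 2-fold between the libraries. NBEA (neurobeachin) had 241 and 437 counts, and LRBA, its relative in the BEACH domain family, had 144 and 146. PICALM, a clathrin assembly protein, had 121 and 169, and GRIPAP1, a recycling endosome protein encoded on chromosome X, had 235 and 134. The exception was PIKFYVE, which is on both lists. Beside the 46.0% of all circRNAs counted in both libraries, a count of 4 in 5 members describes these members alone.

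RNA-processing genes contributed 4 members. ZC3H18, which links the cap-binding complex to RNA decay, had 588 and 115 counts. PARN, a poly(A)-specific ribonuclease, had 36 and 326, and TUT7, a terminal uridylyltransferase, had 120 and 196. REXO5, an RNA exonuclease, had 163 and 1. TUT7 alone of these was within 2-fold, beside the 46.0% of all circRNAs counted in both libraries.

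Transcription factors and zinc finger proteins gave 4 members, 0 of them within 2-fold, beside the same 46.0%, a count that describes these 4 alone. ZMYM2, a zinc finger protein that binds SUMO, was the highest member of library 1 with 773 counts, against 244 in library 2. ARNT, the dimer partner of the hypoxia and dioxin receptors, had 242 and 678, and GABPA, an ETS factor of nuclear genes for mitochondria, had 44 and 116. Of the chromatin list, TASOR2 had 127 and 780 and MLLT10, a DOT1L partner, had 9 and 1, the lowest mean of all members. STAG1, a cohesin subunit and the only member on the centrosome and cell cycle list, was even at 101 and 105.

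Of the ubiquitin genes, BIRC6, a large E2/E3 enzyme that restrains apoptosis and autophagy, had 713 counts in library 1 and 51 in library 2. RNF10 had 219 and 26, and RNF32 is given above. HACE1, a ubiquitin ligase that is not on the list, had 39 and 21. Membrane proteins gave HTR4, a serotonin receptor (215 and 390), and SLC38A9, the arginine sensor of lysosomes (28 and 48). Both were within 2-fold, beside the same 46.0%.

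Of the members, 17 were on no list. ATXN10, the ataxin 10 gene, had 334 and 398 counts, and ERMP1, a metallopeptidase of the endoplasmic reticulum, had 190 and 208. Both were even, as were MAP7D1 (42 and 55), FNDC3B (65 and 53) and GATAD2A, a NuRD subunit (12 and 18). TBCD, a tubulin folding cofactor (418 and 124), ZDHHC7, a palmitoyltransferase (124 and 383), PPME1, the methylesterase of protein phosphatase 2A (39 and 158), and AXIN2, a brake on Wnt signalling (28 and 74), differed by more than 2-fold. METTL21A, a methyltransferase of Hsp70 proteins, had 1 and 633, and ARMH3 had 1 and 630. The remaining 4 members have hosts named by Ensembl identifier alone. Of these, ENSSSCG00000007733 had 718 counts in library 1 and 14 in library 2, ENSSSCG00000005307 had 429 and 124, ENSSSCG00000031636 had 24 and 322, and ENSSSCG00000022164 was even at 38 and 49.

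**Figure D2:**
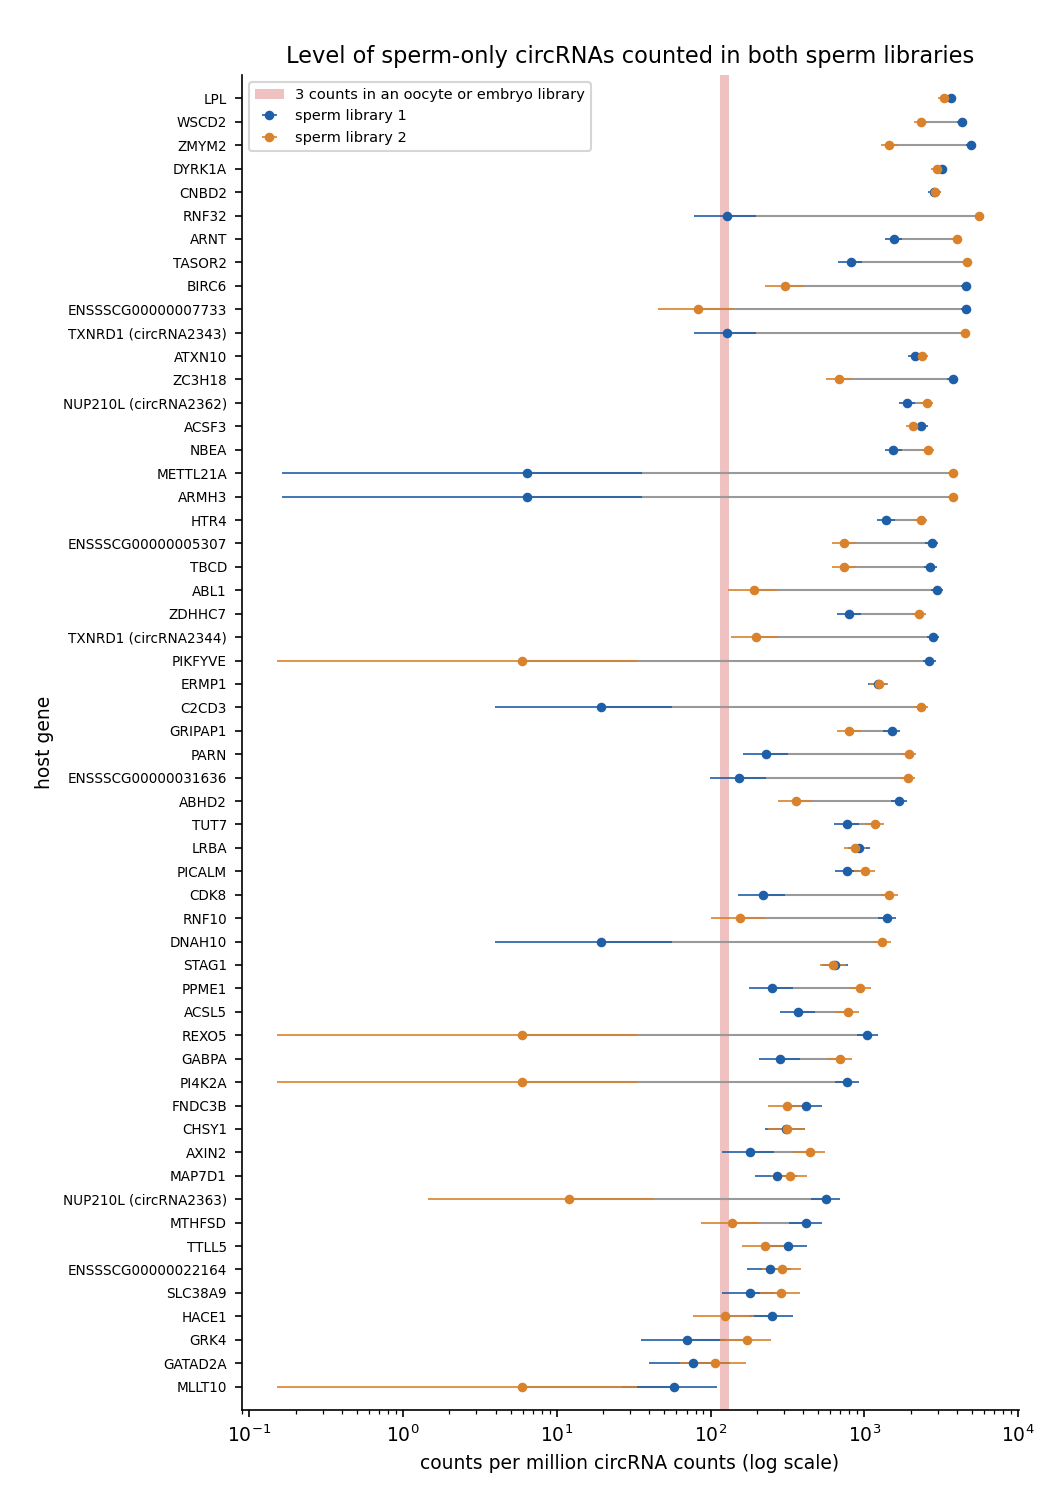
Level of 56 of the 57 members in sperm library 1 (blue) and library 2 (orange), in CPM of circRNA counts on a log scale, ordered by their mean, with exact 95% Poisson intervals that cover counting error only. The red band marks 3 counts in an oocyte or embryo library (114.5 to 131.5 CPM); in both sperm libraries 41 of the members drawn lie above it.

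The sperm libraries differed on the level of many single members. On the CPM scale 22 of 57 members (38.6%, exact 95% interval 26.0 to 52.4) were within 2-fold between the libraries, beside a background of 46.0% for the 126 circRNAs counted in both and 36 of 69 (52.2%, 39.8 to 64.4) for the others. Within 10-fold were 42 members and 57 of the others. Differences over 100-fold were found for 6 of the 57 members and for 8 of the 69 others, so that the largest differences were in both sets. The median difference was 2.87-fold for the members and 1.97-fold for the others. With 1 library against 1, no test of single circRNAs was possible, and all intervals cover counting error only. The counting intervals of the libraries overlapped for 19 of the 57 members and for 14 of the 69 others, whose median of the mean counts was higher (364.5 against 181).

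The difference had no common direction: 27 members were higher in library 1 and 30 in library 2, and the median log2 ratio of library 2 to library 1 was 0.02 (SD 3.55, n = 57 members). The rank order was not shared. Spearman's rho of the libraries was 0.017 across the 57 members and 0.63 across the 69 others, as a description of circRNAs that come from the same libraries. With at least 10 counts in each library, rho was 0.168 (n = 48) and 0.75 (n = 59). Requiring high counts in both libraries left more even members, as that limit itself favours them: 15 of 22 members with at least 100 counts in each (68.2%) were within 2-fold.

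The most even members by ratio were CNBD2, ERMP1, CHSY1, STAG1 and LRBA, each within 1.06-fold. These spanned a broad range of levels, from a mean of 312 CPM for CHSY1 to 2868 for CNBD2. The most uneven were METTL21A (587-fold), ARMH3 (585-fold), PIKFYVE (444-fold), REXO5 (176-fold) and PI4K2A (130-fold), each with 1 count in its lower library. With 1 count, the ratio has a wide counting interval, since the level of METTL21A in library 1 is 6.42 CPM with an exact Poisson interval of 0.163 to 35.8.

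**Figure D3:**
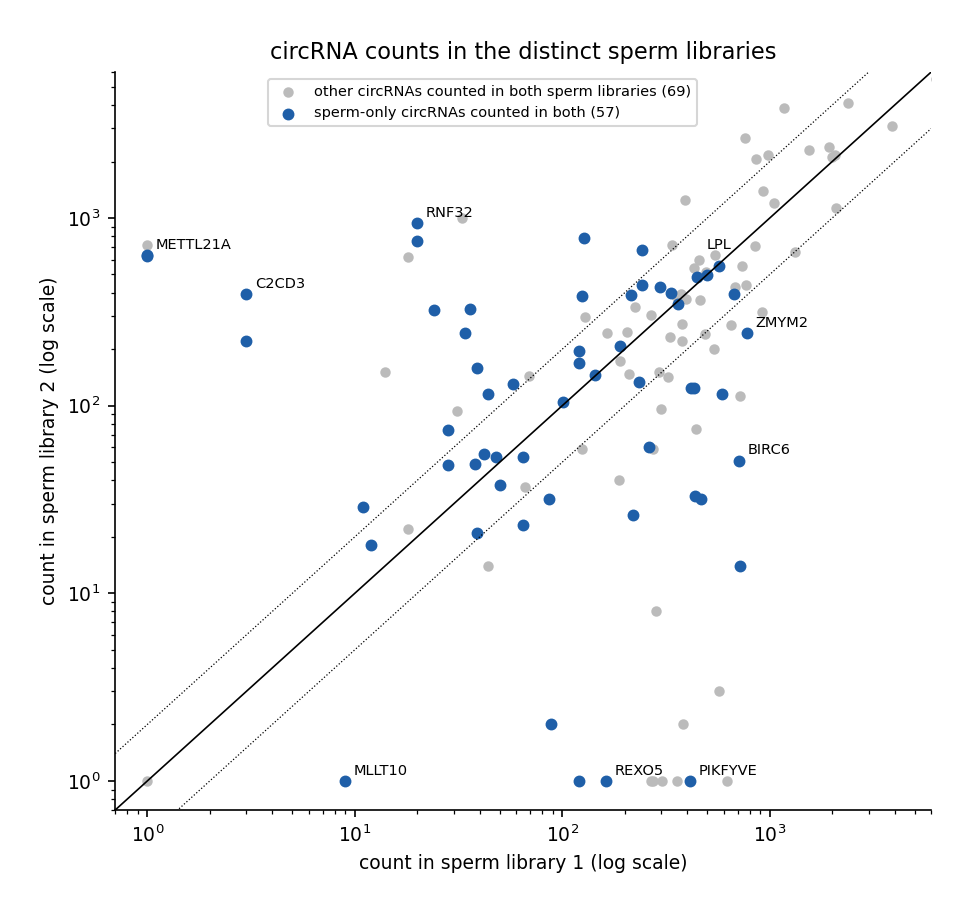
Counts of the 57 members (blue) and the 69 other circRNAs counted in both sperm libraries (grey), library 1 on the x axis and library 2 on the y axis, both on log scales, with lines of equality (solid) and of 2-fold difference in raw counts (dotted). The grey points extend to higher counts near the line, and both sets have points far from it on both sides, among the blue ones METTL21A (1 and 633) and PIKFYVE (412 and 1).

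Of the 55 host genes, 30 had no other circRNA in the table, and the other 25 had 56 circRNAs besides the members. In 20 hosts (36.4%, exact 95% interval 23.8 to 50.4) another circRNA was counted in an oocyte or embryo library, beside 190 of 598 hosts (31.8%) of the single-library sperm-only circRNAs. For 12 hosts this was in MII oocytes, for 13 in PN embryos and for 5 in both. The 20 hosts fell to 10 with at least 10 counts asked, and to 2 with counts in at least 2 libraries. Of the 35 circles counted in oocytes or embryos, 31 were in a single oocyte or embryo library. The highest was LRBA circRNA1641, with 80 counts in PN embryo library 1 and 0 in all the others. On the CPM scale this is 3470, close to the mean of LPL, the highest member in sperm. In counts it was far lower, at 80 against a mean of 562 for LPL, as that embryo library has a smaller circRNA total. The median of the 35, each at its highest library, was 175 CPM. LRBA had 9 other circRNAs, of which 8 were counted in oocytes or embryos and 1 in sperm.

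Another circRNA in sperm was found for 18 hosts, 28 circles in all. Of these, 13 were counted in library 1 only, 13 in library 2 only and 2 in both, and the 2 in both are excluded by low counts in PN embryos. They are MLLT10 circRNA1691 (291 and 151 counts in the sperm libraries, 3 in PN embryo library 1) and ENSSSCG00000031636 circRNA2154 (31 and 94, with 1 in PN embryo library 3). MLLT10 thus gave an abundant circle in both libraries while its member had 9 counts and 1 count.

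ZMYM2 is the clearest case of a host with several sperm circles. Next to its member (773 and 244 counts), circRNA2555 and circRNA2557 had 743 and 900 counts in library 1 and 0 in library 2. In turn, circRNA2930 and circRNA2929 had 533 and 9 counts in library 2 and 0 in library 1. Both libraries were rich in ZMYM2 circles, and 1 of 5 sperm circles was common to them. Summing all circRNAs of a host did not bring the libraries closer, with 18 of 55 hosts (32.7%) within 2-fold and a Spearman's rho of 0.077.

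The hosts were spread over the genome. Of the 55, 48 were matched by symbol to RefSeq genes of Sscrofa11.1, and they lay on 19 chromosomes, most often on chromosome 14 (6 hosts) and chromosome 6 (5). A single host, GRIPAP1, was on chromosome X.

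A measurement that the rule did not use is the coverage of transcripts in the non-coding RNA table that carry a host gene's name. Of the 55 hosts, 41 had such transcripts, 190 in all and between 1 and 24 per host. How transcripts were paired with gene names is not stated in the sources used here, so these values are not the level of the linear host mRNA. Coverage is the average depth of reads over a transcript's bases, here summed over the transcripts of a name. In this table all 3 sperm libraries are distinct, and 0.262% of values above 0 are equal in columns 1 and 3. This comparison was added after the data were seen.

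In sperm these transcripts were patchy between libraries. Of the 41 hosts, 10 reached a coverage of 1 in no sperm library, 15 in 1, 8 in 2 and 8 in all 3. Over all 9962 gene names the shares were 50.7%, 28.7%, 13.0% and 7.56%, against 19.5% of hosts covered in all 3. STAG1 is an example, at 2958, 7.89 and 1968 in sperm libraries 1 to 3, although its circRNA had 101 and 105 counts. Transcripts of DYRK1A, with 496 circRNA counts in both libraries, had a coverage of 1, 1627 and 2417. The repeated circRNA counts could belong to sperm library 1 or 3, which these data do not settle. For STAG1, coverage in sperm library 2 lay far below both, so it did not mirror the even counts of its circle. For DYRK1A, this holds only if the counts are those of library 1, as coverage in libraries 2 and 3 was 1627 and 2417.

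A host was tested where its coverage was at least 1 in at least 3 of the 6 libraries of a comparison, with limma on log2(coverage + 1), and was called at a change of at least 1 on the log2 scale with a Benjamini-Hochberg adjusted p-value under 0.05 over all names. Against MII oocytes, 4 of 20 hosts tested were higher in sperm, beside 7.50% of the 4532 names tested, and 3 were lower, beside 39.0% of names. Against PN embryos, 4 of 23 hosts were higher, beside 7.78% of 4347 names, and 3 were lower, beside 36.5%. Leaving out 1 library gave 4 to 9 higher hosts against MII oocytes and 2 to 6 against PN embryos, with other numbers tested. The median log2 change was 1.86 over the hosts and -2.89 over all names against MII oocytes, and 0.61 and -2.45 against PN embryos. The median over the hosts was 2.75 and 1.84 under quantile normalization, and when scaled to the summed coverage it was 0.61 against MII oocytes and turned to -0.64 against PN embryos. The share of names called lower changed with the scaling. Under quantile normalization it was 10.8% in each comparison, with 1 host lower in each. The filter keeps hosts that are high in at least 1 group, so that these counts are a description. C2CD3, SLC38A9 and TTLL5 among the lower hosts entered only through the oocyte or embryo libraries, as did ERMP1 through those of MII oocytes. PIKFYVE and PICALM, and BIRC6 against PN embryos, entered only through the sperm libraries. Both comparisons use the same sperm libraries.

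The 4 hosts that were higher in sperm were the same in both comparisons. PIKFYVE transcripts had a coverage of 517, 776 and 763 in sperm, 0, 0 and 1 in MII oocytes and 2, 0 and 0 in PN embryos. The groups did not overlap, and the change was 9.06 on the log2(coverage + 1) scale against MII oocytes (SE 0.69, limma adjusted p = 0.000228) and 8.87 against PN embryos (SE 0.81, limma adjusted p = 0.000489). PIKFYVE reached the filter only with its sperm libraries, so that these p-values are a description. With no filter, its adjusted p was 0.000842 and 0.00132 (limma). The circRNA of PIKFYVE, in contrast, was almost confined to sperm library 1 (412 counts and 1).

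BIRC6 had 907, 979 and 1328 in sperm, 7.44, 24.2 and 1.62 in MII oocytes and 0.83, 88.2 and 1.12 in PN embryos. It rose by 7.01 (SE 1.06, limma adjusted p = 0.00311) and by 7.23 (SE 1.73, limma adjusted p = 0.0199) on the same scale. The coverage in the sperm libraries was thus even, where the circRNA of BIRC6 differed 15.1-fold. Against PN embryos, BIRC6 reached the filter only with its sperm libraries, and with no filter its adjusted p was 0.0381 (limma).

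PICALM had 1373, 2720 and 378 in sperm, 20.6, 0 and 0.43 in MII oocytes and 41.8, 0 and 6.33 in PN embryos, a change of 8.48 (SE 1.57, limma adjusted p = 0.00721) and 7.37 (SE 1.67, limma adjusted p = 0.0166). PICALM reached the filter only with its sperm libraries, so that these p-values are a description. With no filter, its adjusted p was 0.0128 and 0.0317 (limma). LRBA, with 22 transcripts, was covered in every library: 1183, 648 and 2017 in sperm, 160, 152 and 123 in MII oocytes and 97.5, 201 and 165 in PN embryos. Its change was smaller, at 3.00 (SE 0.54, limma adjusted p = 0.0063) and 2.96 (SE 0.61, limma adjusted p = 0.0118). For both genes every sperm library lay above every oocyte and embryo library. Under quantile normalization and scaling to the summed coverage, the change of LRBA fell to between 1.54 and 1.71 and did not pass in either comparison. Against PN embryos it also did not pass without the filter (adjusted p = 0.0792, limma) or with the replicate block (0.0534), with its change still at 2.96. Against PN embryos, BIRC6 and PICALM did not pass under 5 and 4 of 12 alternatives, with adjusted p up to 0.074 and 0.0622 (limma).

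Of the 41 hosts, 10 were listed at 0 in all 3 sperm libraries, beside 46.4% of all 9962 names. Among these 10 were 3 of the lower hosts, whose circRNAs were counted in sperm alone. Their values are a description with no test. C2CD3 transcripts had a coverage of 85.3, 138 and 129 in MII oocytes and of 150, 211 and 108 in PN embryos, and were listed at 0 in all sperm libraries. SLC38A9 had 41.8, 76.5 and 53.3 in MII oocytes, 67.1, 18.4 and 9.88 in PN embryos and 0 in sperm. TTLL5 had 83.3, 0.52 and 74.4 in MII oocytes, where it was not tested, 5.27, 128 and 148 in PN embryos and 0 in sperm. For these 3 genes, the named non-coding transcripts were covered in oocytes and embryos, where the circle was not counted, and were listed at 0 in sperm, where it was.

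ERMP1 was lower in sperm than in MII oocytes, at 2.34, 0.51 and 0 against 66.3, 18.8 and 56.0 (limma adjusted p = 0.00382), but under quantile normalization the direction turned. In this comparison it reached the filter only with the MII oocyte libraries, so that this p-value is a description. With no filter, its adjusted p was 0.0224 (limma). Against PN embryos, at 39.2, 103 and 1.31, its adjusted p was 0.121 (limma). The call of PIKFYVE held under all 12 alternatives in each comparison, no filter among them. Coverage was not normalized, and the calls of LRBA, ERMP1, SLC38A9 and TTLL5 depended on how the libraries were scaled. Under quantile normalization, SLC38A9 fell to -1.21 against MII oocytes and -1.11 against PN embryos and did not pass (limma adjusted p = 0.128 and 0.19). TTLL5 did not pass against PN embryos (limma adjusted p = 0.179), with its change at -4.35.

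**Figure D4:**
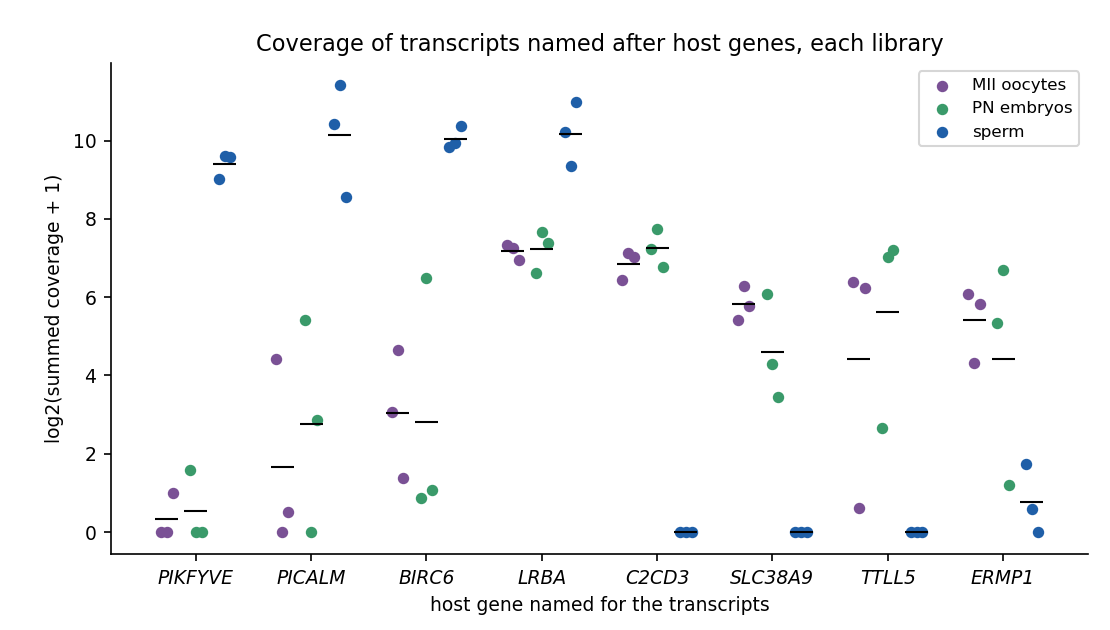
Coverage of transcripts named after 8 host genes, as log2(summed coverage + 1) on the y axis, for each library of MII oocytes (purple), PN embryos (green) and sperm (blue), with group means as black lines. All sperm points of PIKFYVE, PICALM, BIRC6 and LRBA lie above those of oocytes and embryos, and C2CD3, SLC38A9 and TTLL5 are at 0 in sperm.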

How the data were processed

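Total RNA of MII oocytes, PN embryos and sperm, 3 libraries each, was depleted of ribosomal RNA and sequenced as strand-specific libraries. The authors deposited whole-number counts per circRNA with the host gene, signal as coverage per non-coding transcript, and counts per mRNA locus, all without normalization. The mRNA table pairs no identifier with a symbol and was used only for a scaling alternative. The submitters' processing notes name cutadapt 1.9, TopHat2 2.0.4, HISAT2 2.0.4, StringTie 1.3.4d, edgeR and the build Sscrofa11.1. The circRNA caller is not given in the sources used here, and circRNA coordinates and sequences are not analysed here. Of the deposited value columns, 0 were of unknown sample.

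Members, lists and tests were chosen with earlier results of these data known. Counts were scaled to a circRNA total of 1000000 per library (CPM). Named are the 15 members with the highest mean, the 5 most and least even, members that share a host, those with a lower count of 1 or 2, the circles just outside the rule, and members on the host gene lists; the remaining members were named after their values were seen, so that every group could be described. Shares have exact binomial intervals and counts exact Poisson intervals at 95%, for counting error only, since PCR reads are not independent molecules. Coverage was summed per gene name and moved to log2(coverage + 1) and compared by limma 3.58.1, with a mean-variance trend in its empirical Bayes step and 2 groups per fit, and the procedure was tested on simulated data. This test was not part of the original plan and was chosen after the data were seen. All hosts past its threshold are named. For 1 member, no values of its own are reported here. The depth behind a coverage value is unknown. Fold changes on this scale understate the change of low values. Python 3.11.15, pandas 2.3.3, numpy 2.4.6, scipy 1.17.1, matplotlib 3.10.9 and R 4.3.3 were used.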

Additional observations from a re-analysis of the deposited data

How the results depend on the processing

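The number of members, 57, stayed between 48 and 84 with at least 2, 3 or 10 counts in each sperm library or with zeros asked of 1 cell type only, and between 58 and 68 without 1 oocyte or embryo library each. With sperm replicate 1 replaced by its repeat it was 57 by construction, and neither distinct sperm library can be left out. It was 90 when up to 2 counts were allowed in oocyte and embryo libraries and 99 with up to 10. The share within 2-fold was 68.2% for members with at least 100 counts in each library. Without LPL, the members held 7.11% of library 1 and 7.36% of library 2. Hosts with another circRNA in oocytes or embryos fell from 20 to 10 with at least 10 counts and to 2 in at least 2 libraries.

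The alternatives for coverage were chosen after the data were seen. The scaling set the median of all names: -0.08 (MII oocytes) and -0.36 (PN embryos) under quantile normalization and -3.77 and -3.46 when scaled to the summed coverage, where that of the hosts turned from 0.61 to -0.64 against PN embryos, beside 1.84 under quantile normalization. Hosts lower in sperm numbered 1 in each comparison under quantile normalization, where ERMP1 turned to 0.26, and 1 against PN embryos without the filter. Leaving out 1 library gave 4 to 9 higher and 3 to 4 lower hosts against MII oocytes, with 9 without sperm replicate 1 and 7 without sperm replicate 2, and 2 to 6 higher and 2 to 3 lower against PN embryos, with 2 without PN embryo replicate 3. Against PN embryos, BIRC6 did not pass without PN embryo replicate 1 or 3 or any sperm replicate, and PICALM without PN embryo replicate 3 or sperm replicate 1 or 2; their log2 changes there stayed between 6.26 and 7.34, and 6.73 and 7.42. The replicate block left 2 hosts higher against PN embryos, with LRBA and PICALM at adjusted p = 0.0534 and 0.0515 (limma), and changed no other count of hosts; same-numbered libraries share only a number (correlation of deviations -0.012 to 0.017). The causes were not tested.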
